A study of Danio rerio with 12 samples.

Results

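The comparison described here is cryoinjury against sham operation in hearts with an intact yap1 gene, read across all genes. It uses the 6 wild-type libraries of 12 RNA libraries of whole zebrafish (Danio rerio) hearts. The wild-type fish carried yap +/+ and were 6 to 12 months old, and hearts were taken 7 days after the operation. In the cryoinjury group the exposed ventricle was frozen locally with a probe cooled in liquid nitrogen, and sham hearts were exposed without freezing. Each group had 3 libraries, called here cryoinjury 1 to 3 and sham 1 to 3. Both groups had the chest opened, so the comparison is of the freezing injury, not of the surgery. The other 6 libraries came from yap -/- fish with the same operations. They were used here for 1 alternative fit and, together with the wild-type libraries, for choosing which abundant genes count as globins. The labels do not say whether replicates came from separate animals or whether hearts were pooled, so the p-values cover the spread among these libraries, which may be technical.

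A cryoinjured zebrafish ventricle loses heart muscle to freezing, clears the dead tissue with phagocytes, and lays down a provisional scar rich in collagen and fibronectin. The epicardium, the sheet of cells that covers the heart, becomes active and supplies fibroblasts and secreted factors. Surviving heart muscle cells near the wound re-enter the cell cycle and replace the scar over the following weeks. The samples were whole hearts, so the injured region was measured together with undamaged ventricle, atrium, outflow tract, valves and blood.

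The deposited values are FPKM (sequenced fragments of a gene, divided by its transcript length and by the mapped fragments of the library), in which a gene's level is relative to all other transcripts of its library. Summed FPKM ran from 668669.9 to 823107, and the depth, read from the steps between low values, was 1.00 to 1.05 times that of sham 1. The cryoinjured libraries listed 3145 to 3435 of 24782 genes at 0, and the sham libraries 3859 to 4046. Globin mRNA of red blood cells took 7.69% to 21.5% of summed FPKM in cryoinjured hearts and 3.75%, 5.73% and 29.0% in sham 1, 2 and 3. Within a group the libraries correlated at 0.957 on average (6 pairs), against 0.946 between groups (9 pairs). The leading principal component took 40.3% of the variance and held the cryoinjured libraries at 11.5 to 35.4 and the sham libraries at -37.9 to -7.51. Heart muscle genes were abundant in every library: the myosin light chain gene myl7 stood at 24911, 23348 and 15625 FPKM in cryoinjured hearts and 34202, 29128 and 22630.1 FPKM in sham hearts. Single libraries stood apart in genes of other tissues. In cryoinjury 3, 26 genes were over 4-fold above each of the other 5 libraries on the log2(FPKM + 1) scale, against 1 to 6 in any other library, among them the cartilage and bone collagen gene col10a1b at 142 FPKM (1.15 or less elsewhere) and the skin keratin gene krt5 at 74.1 FPKM (2.27 or less elsewhere). In sham 3 the liver fatty-acid binding gene fabp10a stood at 20.2 FPKM (0.91 or less elsewhere). Both kinds of gene were left in the fit, and their part in the results was not tested.

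yap1 itself stood at 28.5, 29.8 and 22.1 FPKM in cryoinjured hearts and 28.4, 28.4 and 18.8 FPKM in sham hearts, with overlapping groups (exact permutation test, two-sided p = 0.5, n = 3 each). Its paralogue wwtr1, which encodes the co-activator Taz, stood at 16.2, 18.8 and 16.1 FPKM and 16, 15.5 and 11.3 FPKM, with no overlap. The difference in wwtr1 was 0.26 ± 0.17 on the log2(FPKM + 1) scale (SE), and its exact p of 0.1 is the smallest that 3 libraries against 3 can give. The difference in yap1 was 0.10 ± 0.21, with a sign that turned with the scaling. Both genes are read against the shift of all genes given next.

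Most genes stood slightly higher after cryoinjury. Of 13929 genes with a mean of 1 FPKM or more, 10324 (74.1%) were higher and 3605 lower, with a median difference of 0.19 (log2). This shift depends on the scaling: it was -0.02 with median-of-ratios rescaling and 0.25 when FPKM were rescaled without the globins. At an unadjusted p under 0.05, 2530 genes were higher (18.2%) and 328 lower (2.35%), against about 696 for both directions together if no gene differed. Median-of-ratios rescaling turned this split to 1078 higher (7.74%) and 1274 lower (9.15%), and quantile normalization to 1046 and 1078. Differences below are therefore read against 0.19, the median of all genes on the same scale. The log2(FPKM + 1) scale shrinks differences of low genes, so 0.19 is only a rough guide for abundant ones. The median of the cytosolic ribosomal protein genes, which are abundant, went from -0.01 to -0.28 with median-of-ratios rescaling. In 3356 genes (24.1%) every cryoinjured library was above every sham library, and in 482 (3.46%) every one was below. Among these, 814 genes had a mean at least 2-fold higher (5.84% of all tested) and 34 at least 2-fold lower (0.244%). Without cryoinjury 3 the number at an unadjusted p under 0.05 was 1760 in both directions together, and without any other single library it was 1916 to 3140. Several lists of genes described below follow the shift: the medians of cholesterol synthesis, heat shock and oxidative stress, Bmp and Wnt signalling, ribosome biogenesis, endothelial, smooth muscle, embryonic muscle and cardiac transcription factor genes were positive as deposited and negative after median-of-ratios rescaling.

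**Figure D1:**
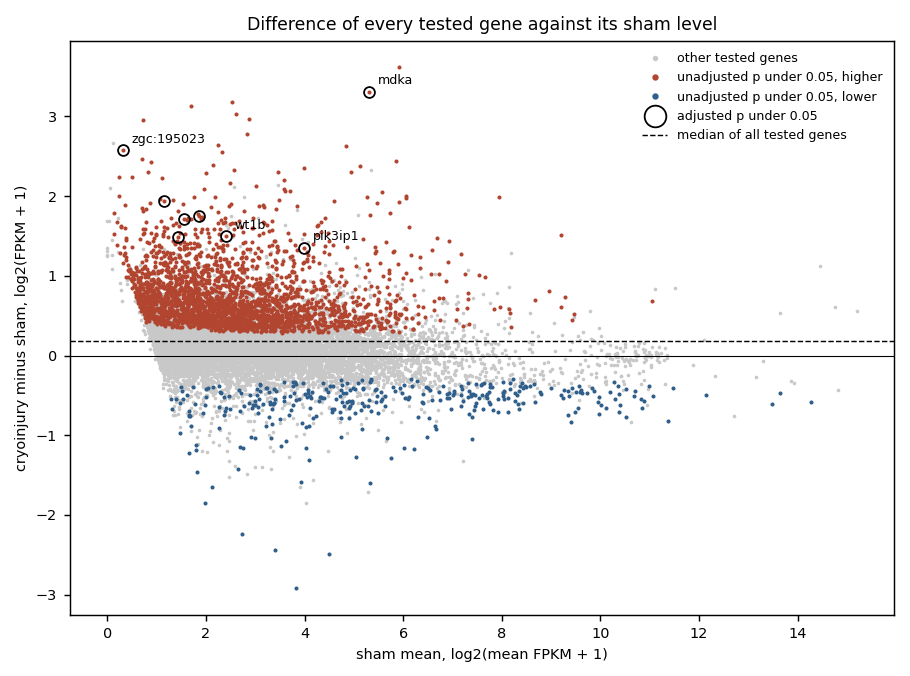
Each point is 1 of the 13929 tested genes, placed by its mean level in the 3 sham libraries and by its difference between cryoinjury and sham, both on the log2(FPKM + 1) scale. The cloud is centred at 0.19 (dashed line). More genes pass an unadjusted p under 0.05 as higher than as lower (2530 against 328, split by the sign of the difference). The 8 circled genes pass at an adjusted p under 0.05.

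Only 8 of the 13929 genes (0.0574%) passed limma with Benjamini-Hochberg adjustment at 0.05, and all 8 rose. They comprise a natriuretic peptide gene, a growth factor, an epicardial transcription factor, a collagen chaperone, 2 regulators of insulin and PI3-kinase signalling, a tubulin and a gene with no name. The gene with the lowest p was zgc:195023 (NCBI gene 567953), which current RefSeq annotation names nppal, a natriuretic-peptide-like gene. It stood at 7.37, 4.97 and 7.15 FPKM in cryoinjured hearts and 0.37, 0.18 and 0.18 FPKM in sham hearts, a difference of 2.58 ± 0.19 (adjusted p = 0.0358). Every sham library was near the lower limit of measurement, and every cryoinjured one was above 4 FPKM. The major cardiac natriuretic peptide genes, nppa and nppb, which heart muscle secretes under strain, were measured at far higher levels with overlapping groups. nppa stood at 2182, 2450.2 and 2092 FPKM after cryoinjury and 2738, 2036 and 2024 FPKM after sham operation, and nppb at 548, 260.2 and 407 FPKM and 336, 220.5 and 154 FPKM. The differences were 0.00 ± 0.16 for nppa and 0.78 ± 0.36 for nppb (adjusted p = 0.991 and 0.271), and the sign for nppa turned with the setting.

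mdka (NCBI gene 30277) encodes midkine, a secreted heparin-binding growth factor of embryos and wounds. Its level was 486, 259 and 429 FPKM in cryoinjured hearts against 35.5, 54.1 and 26.6 FPKM in sham hearts (3.31 ± 0.32, adjusted p = 0.0409). The lowest cryoinjured library was thus several times above the highest sham library, and the group means were 392 ± 118 and 38.7 ± 14 FPKM (SD, n = 3 each). wt1b (NCBI gene 568416), a Wilms tumour transcription factor that marks active epicardium, rose from 4.47, 3.66 and 4.7 FPKM to 14.6, 12.7 and 14.4 FPKM (1.5 ± 0.14, adjusted p = 0.0383). Both groups of wt1b values were narrow, at 4.28 ± 0.546 and 13.9 ± 1.04 FPKM. fkbp10b (NCBI gene 324381), an endoplasmic reticulum prolyl isomerase that assists collagen folding, rose from 2.28, 1.91 and 1.67 FPKM to 10.1, 6.95 and 9.22 FPKM (1.72 ± 0.18, adjusted p = 0.0484).

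Among the other called genes, pik3ip1 (NCBI gene 386643) encodes a membrane protein that restrains PI3-kinase. It had 36.8, 41.4 and 40.9 FPKM after cryoinjury and 15.4, 15.6 and 13.7 FPKM after sham operation (1.35 ± 0.12, adjusted p = 0.0383). irs2a (NCBI gene 393285), an insulin receptor substrate that carries the signal of insulin and insulin-like growth factors to that kinase, went from 1.61, 1.45 and 2.03 FPKM to 6.89, 5.72 and 7.09 FPKM (1.49 ± 0.15, adjusted p = 0.0484). tubb5 (NCBI gene 386701), a beta-tubulin found in growing neurons and in dividing cells, went from 2.56, 2.96 and 2.44 FPKM to 12.9, 11.7 and 9.38 FPKM (1.75 ± 0.16, adjusted p = 0.0383). LOC101883708, a protein-coding gene without a name in the tables used here, went from 1.03, 1.52 and 1.07 FPKM to 7.61, 6.1 and 8.73 FPKM (1.94 ± 0.18, adjusted p = 0.0383). In all 8 genes the groups did not overlap.

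The number of calls is sensitive to single libraries. It was 0 without cryoinjury 1, without cryoinjury 3 or without sham 3, 1 without sham 1 (a lower gene), 6 without cryoinjury 2 and 133 without sham 2. The 8 genes stood higher in each of these fits, as genes without overlap between groups must. A further 40 genes share the next adjusted p of 0.0566, and at an adjusted p under 0.10, a threshold added after the values had been seen, 448 genes passed (3.22%), 420 of them higher and 28 lower.

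**Figure D2:**
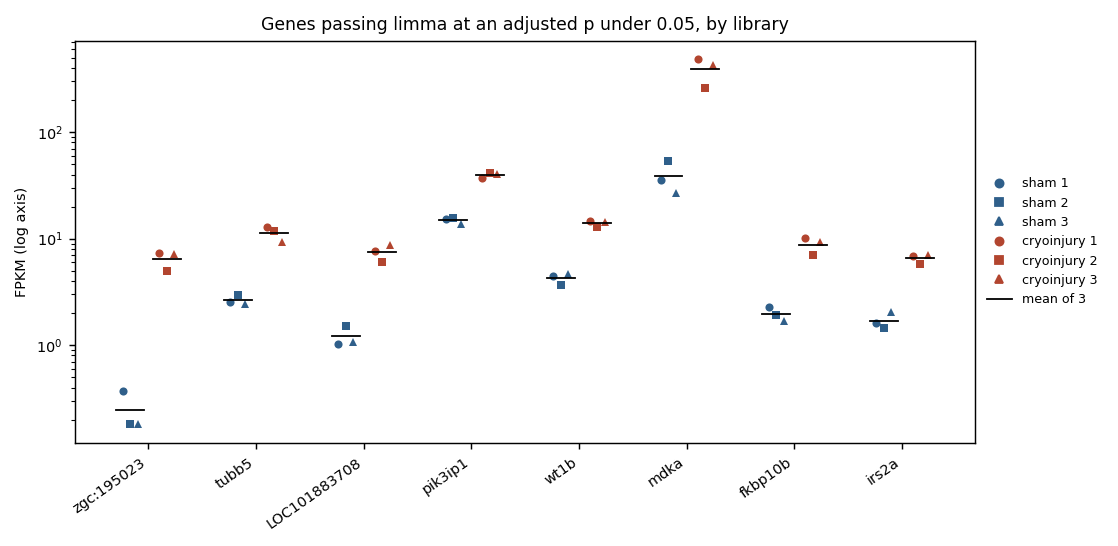
FPKM on a log axis for the 8 genes that passed limma at an adjusted p under 0.05, 1 point per library (colour for group, shape for replicate number) with the mean of each group as a line. In all 8 the 3 cryoinjured libraries lie above the 3 sham libraries, from a 2.66-fold higher mean in pik3ip1 to a 26.7-fold higher mean in zgc:195023.

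All genes named from here on missed the adjusted threshold, unless they are among those 8. The next in order of p among higher genes were adam8a, mfap4, timp2b and scpep1, all at an adjusted p of 0.0566. adam8a, a membrane metalloproteinase of leukocytes, stood at 17.1, 7.21 and 12.4 FPKM in cryoinjured hearts and 0.42, 1.16 and 0.41 FPKM in sham hearts (2.95 ± 0.32), and the metalloproteinase inhibitor gene timp2b at 38.3, 19.1 and 31.8 FPKM and 4.17, 6.36 and 4.39 FPKM (2.33 ± 0.27). mfap4, a secreted microfibril-associated lectin whose zebrafish gene is expressed by macrophages, stood at 28.3, 20.8 and 21.9 FPKM in cryoinjured hearts and 2.86, 5.39 and 5.62 FPKM in sham hearts (2.16 ± 0.24). scpep1, a lysosomal serine carboxypeptidase, stood at 33.3, 32.5 and 28.8 FPKM and 14.4, 15.4 and 13.2 FPKM (1.08 ± 0.13). None of these 4 genes overlapped between groups.

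The lower genes with the lowest p belong to several kinds of function. ak1, which encodes the adenylate kinase that equalizes adenine nucleotides in muscle, stood at 1558, 1494 and 1461 FPKM in cryoinjured hearts and 2813, 2451 and 2717 FPKM in sham hearts (-0.82 ± 0.12, adjusted p = 0.0574). adsl, the adenylosuccinate lyase of purine synthesis and the purine nucleotide cycle, stood at 83.8, 87.8 and 70.9 FPKM and 195, 157 and 152 FPKM (-1.04 ± 0.15, adjusted p = 0.0578). The mean after cryoinjury was 0.565 times the sham mean for ak1 and 0.481 times for adsl. fzd9b, a Wnt receptor of the Frizzled family, stood at 10.5, 16.1 and 11.7 FPKM after cryoinjury and 35.4, 29.8 and 30.8 FPKM after sham operation (-1.28 ± 0.18, adjusted p = 0.0566). irx5a, an Iroquois homeobox transcription factor that patterns conduction and repolarization in the mouse heart, stood at 11.2, 17.1 and 9.11 FPKM and 35.9, 49.5 and 32.6 FPKM (-1.60 ± 0.26, adjusted p = 0.0665). dhrs3b, which turns retinaldehyde back to retinol, stood at 6.59, 6.78 and 6.6 FPKM and 11.2, 12.3 and 12 FPKM (-0.74 ± 0.12, adjusted p = 0.0665). The groups did not overlap in any of these 5 genes. rps8b, asb2a.1, atp5l, cox7a1 and ndufa5 complete the 10, with adjusted p from 0.0574 to 0.0972. asb2a.1, of the ankyrin repeat and SOCS box family, stood at 10.9, 14 and 11 FPKM and 26.1, 20.4 and 30.4 FPKM (-1.02 ± 0.18), and the complex I subunit gene ndufa5 at 199.8, 208 and 200.3 FPKM and 381, 291 and 301 FPKM (-0.67 ± 0.14). rps8b, a second gene for ribosomal protein S8, stood at 8.06, 8.99 and 7.64 FPKM and 16.2, 16.9 and 14.8 FPKM, and had a difference of -0.88 ± 0.13 while the 79 ribosomal protein genes had a median of -0.01, and reads could have been divided between it and its close copy.

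**Figure D3:**
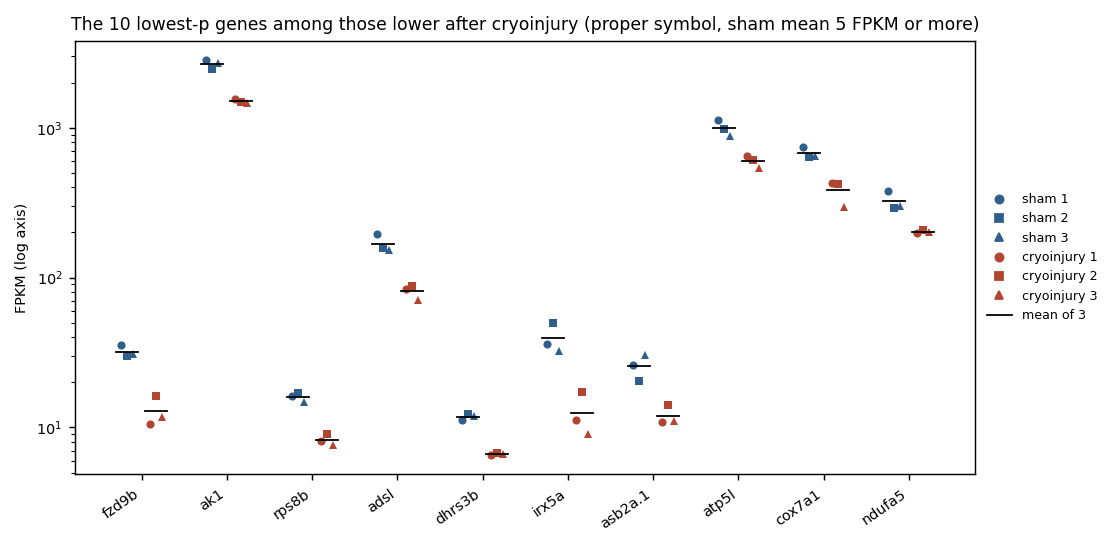
FPKM on a log axis for the 10 genes with the lowest p among those lower after cryoinjury that have a proper symbol and a sham mean of 5 FPKM or more, 1 point per library with the group mean as a line. Every cryoinjured library lies below every sham library in each gene, and none passed the adjusted threshold.

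Genes of the scar matrix stood higher together. Of 43 tested genes of fibrillar collagens and other matrix proteins, 40 were higher, 33 passed an unadjusted p under 0.05 and 32 had no overlap, with a median of 1.23. Those 33 are 76.7% of the list. Over all tested genes 18.2% passed higher and 24.1% were higher without overlap, and 2.35% and 3.46% were so in the lower direction. Counts of list members here and below are read against these shares. Fibronectin, the first adhesive protein of a healing wound, is encoded by fn1a, which stood at 33.5, 16 and 33.8 FPKM in cryoinjured hearts and 3.52, 6.57 and 1.96 FPKM in sham hearts (2.55 ± 0.41). Type I collagen, the main fibre of scars, was represented by col1a1a, at 238, 100.3 and 227 FPKM and 60.6, 59 and 19.9 FPKM (2.05 ± 0.51). postnb, which encodes the fibroblast protein periostin, stood at 332, 86.7 and 147 FPKM and 29.1, 54.8 and 17.1 FPKM (2.38 ± 0.56). In these genes cryoinjury 2 was the lowest of the cryoinjured libraries and still above all sham libraries. The collagen-binding protein gene sparc stood at 381, 222 and 405 FPKM and 127, 135 and 99.9 FPKM (1.43 ± 0.25), the microfibril gene mfap2 at 25.7, 12.7 and 26.9 FPKM and 3.55, 5.21 and 1.53 FPKM (2.39 ± 0.40), and fstl1a, a secreted follistatin-like protein, at 8.32, 4.43 and 9.42 FPKM and 0.8, 1.58 and 0.91 FPKM (1.96 ± 0.28). As a share of summed FPKM the matrix genes took 0.239% to 0.401% in cryoinjured and 0.0601% to 0.151% in sham libraries. In whole-heart RNA, more matrix-producing cells and more matrix RNA per cell cannot be told apart, and the same holds for each cell type below.

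The enzymes that process this matrix followed the same direction. Of 27 tested genes of collagen processing and crosslinking, 26 were higher and 18 passed the unadjusted threshold, with a median of 0.63 (0.53 without sham 3). With median-of-ratios rescaling 22 were higher and 15 passed, with a median of 0.38. pcolce2b, an enhancer of the proteinase that trims procollagen, stood at 93.6, 27.8 and 66.3 FPKM and 4.71, 7.73 and 6.67 FPKM (2.97 ± 0.42), the largest difference of the list. The collagen chaperone gene serpinh1a stood at 27.3, 23.8 and 22.4 FPKM and 9.78, 13 and 9.01 FPKM (1.15 ± 0.17), whereas its paralogue serpinh1b overlapped between groups, at 20.5, 17.9 and 19.9 FPKM and 18.4, 10.8 and 12.2 FPKM (0.50 ± 0.20). Of 15 basement membrane genes, 13 were higher and 10 passed (5 with median-of-ratios rescaling), with a median of 0.70. lamc1, the common gamma chain of laminins, stood at 29.3, 23.4 and 30.2 FPKM and 11.8, 17.6 and 8.3 FPKM (1.13 ± 0.26). Of 23 metalloproteinases and their inhibitors, 22 were higher and 12 passed, with a median of 0.66 (0.44 without sham 3). The gelatinase gene mmp2 stood at 139.9, 141 and 109.7 FPKM against 28.4, 56.5 and 32.3 FPKM (1.77 ± 0.26), and mmp14a, a membrane-bound collagenase that activates it, at 22.2, 13.1 and 18.4 FPKM against 3.5, 9.58 and 3.65 FPKM (1.62 ± 0.36). Neither of these 2 genes overlapped.

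**Figure D4:**
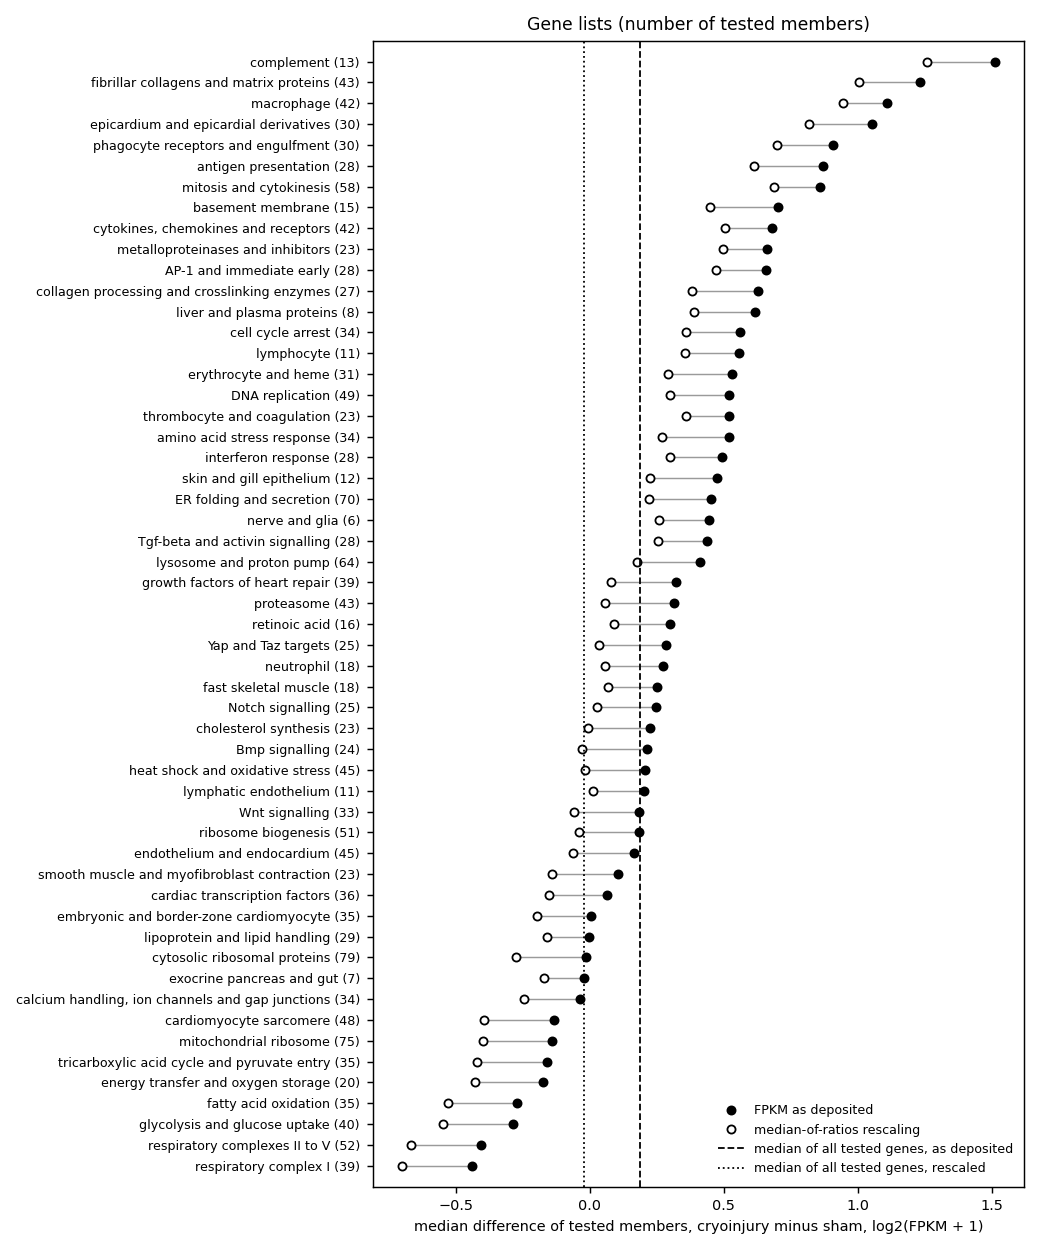
Median difference of the tested members of 54 gene lists with 5 or more tested members, on the log2(FPKM + 1) scale, for FPKM as deposited (filled) and after median-of-ratios rescaling (open), with the medians of all tested genes as lines. Complement, matrix, macrophage and epicardial lists lie farthest to the right and respiratory complexes farthest to the left in both scalings, while 9 lists turn from a positive to a negative median with the rescaling.

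All 30 tested genes of the epicardium and its derivatives were higher, 24 of them at an unadjusted p under 0.05, with a median of 1.05. With median-of-ratios rescaling 29 were higher and 16 passed, with a median of 0.82. As deposited, the mean level of the list was 0.91 to 1.14 above the sham mean in the cryoinjured libraries and -0.27 to 0.30 in the sham libraries. wt1b, described above, belongs to this list. aldh1a2, the enzyme that makes retinoic acid in active epicardium, stood at 166, 139 and 91.5 FPKM in cryoinjured hearts and 38.1, 88 and 39.9 FPKM in sham hearts (1.31 ± 0.36). Here sham 2 lay close to the lowest cryoinjured library. tcf21, a transcription factor of resident epicardial cells, stood at 32.8, 57.9 and 30.4 FPKM and 23, 25.6 and 25.7 FPKM (0.62 ± 0.25), and tgm2b, a transglutaminase that crosslinks proteins, at 88.5, 109 and 92 FPKM and 32, 47.6 and 26.4 FPKM (1.46 ± 0.23). Neither overlapped between groups. Among 16 tested genes of retinoic acid handling, 5 were higher and 1 lower at the unadjusted threshold, the lower one being dhrs3b. The retinoic acid binding gene crabp2b stood at 6.26, 6.43 and 7.18 FPKM and 3.43, 3.48 and 2.06 FPKM (0.95 ± 0.19).

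Contractile genes of smooth muscle and myofibroblasts did not share a direction. Of 23 tested, 16 were higher and 7 lower, with a median of 0.11, which was -0.06 without sham 3 and -0.14 with median-of-ratios rescaling. That rescaling had 4 pass higher and 4 lower, against 4 and 0 as deposited. The 4 higher as deposited are 17.4% of the list, near the 18.2% of all genes. The lowest p of the list was that of tagln, an actin-binding protein of smooth muscle also counted as a Yap target, at 1435, 745 and 867 FPKM in cryoinjured hearts and 255, 222 and 259.5 FPKM in sham hearts (1.99 ± 0.25, adjusted p = 0.0566), without overlap. Of the others that passed the unadjusted threshold, cnn1b, encoding calponin, stood at 68.5, 45.8 and 53.8 FPKM and 33.8, 24 and 20.3 FPKM (1.09 ± 0.23), and cald1a, encoding caldesmon, at 49.1, 33.6 and 28.4 FPKM and 13.9, 20.6 and 11.9 FPKM (1.21 ± 0.26). The defining smooth muscle actin gene acta2 overlapped between groups, at 373, 206 and 233 FPKM after cryoinjury and 374, 346 and 274 FPKM after sham operation (-0.33 ± 0.25). The smooth muscle myosin gene myh11a also overlapped, at 8.08, 5.43 and 7.61 FPKM and 7.83, 9.6 and 4.38 FPKM, with a difference of 0.00 ± 0.28 whose sign turned with the setting.

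Macrophage and phagocyte genes stood higher after cryoinjury. Of 42 tested macrophage genes, 39 were higher, 27 passed the unadjusted threshold higher and 1 lower, with a median of 1.11. As a share of summed FPKM the list overlapped between groups, at 0.377% to 0.495% in cryoinjured and 0.246% to 0.425% in sham libraries. mpeg1.1, which encodes the pore-forming protein perforin-2 of macrophages, stood at 14.2, 10.7 and 14.1 FPKM in cryoinjured hearts and 1.91, 4.97 and 4.68 FPKM in sham hearts (1.59 ± 0.29). The scavenger receptor gene marco stood at 55.3, 30.6 and 41.9 FPKM and 10.7, 24.2 and 9.95 FPKM (1.52 ± 0.36), and csf1ra, the receptor for macrophage growth factors, at 3.71, 2.72 and 5.25 FPKM and 0.41, 2.02 and 0.28 FPKM (1.44 ± 0.37). These 3 genes did not overlap, and sham 2 was the highest sham library in each. One of the ligands of that receptor, csf1a, stood at 2.47, 5.98 and 2.75 FPKM and 1.68, 0.99 and 0.85 FPKM (1.07 ± 0.30). Of 30 phagocyte receptor and engulfment genes, 28 were higher, and 22 passed higher and 1 lower, with a median of 0.91. elmo1, part of the machinery that moves the membrane around a target, stood at 11.7, 10.6 and 11.9 FPKM and 4.99, 6.09 and 4.6 FPKM (1.00 ± 0.14). coro1a, an actin-binding protein of leukocytes, stood at 29.4, 18.9 and 34.4 FPKM and 7.16, 10.6 and 10.4 FPKM (1.44 ± 0.25).

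Downstream of engulfment, 58 of 64 tested lysosome and proton pump genes were higher, with a median of 0.41. At the unadjusted threshold 28 passed higher and 1 lower, and with median-of-ratios rescaling 13 passed higher and 2 lower. The lysosomal proteases differed among themselves. ctssb.2, a cathepsin S gene, stood at 34.6, 17.1 and 23.2 FPKM and 4.94, 11.4 and 7.64 FPKM (1.54 ± 0.33), lgmn, encoding legumain, at 85.1, 62.2 and 72.4 FPKM and 34.2, 48.7 and 36 FPKM (0.87 ± 0.19), and ctsd, encoding the widely expressed cathepsin D, at 74, 55.9 and 57.1 FPKM and 43.8, 53.3 and 55.5 FPKM (0.28 ± 0.16). All 28 tested genes of antigen presentation were higher, 16 of them at the unadjusted threshold, with a median of 0.87. With median-of-ratios rescaling 23 were higher and 10 passed. Without single libraries the median ran from 0.72 (without sham 1) to 0.91 (without cryoinjury 2). The largest difference was that of psmb8a, an inducible proteasome subunit gene, which was listed at 0 in sham 2 alone, at 27.3, 24.8 and 24 FPKM and 22.1, 0 and 8.06 FPKM (2.15 ± 1.02). The related genes psmb10, psmb12, psmb9a and mhc1uka were also at 0 in sham 2 alone, so their differences rest in part on that library. cd74a, the invariant chain that guides class II molecules, stood at 476, 194 and 412 FPKM and 112, 203 and 118 FPKM (1.27 ± 0.38), with cryoinjury 2 just below sham 2. The class I light chain gene b2m, by contrast, stood at 836, 629 and 1105 FPKM and 641, 989 and 823 FPKM, a difference of 0.05 ± 0.25 that was below the median of all genes and changed sign with the scaling.

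Complement genes had the largest median of the 55 lists, at 1.51, with 11 of 13 tested genes higher and 10 past the unadjusted threshold. A further 21 of the 34 complement genes in the file had a mean under 1 FPKM and were not tested. The chains of the recognition molecule C1q gave similar differences: c1qa stood at 36.7, 28.7 and 36.8 FPKM and 7.97, 14 and 14.3 FPKM (1.45 ± 0.24), c1qb at 74.4, 52.3 and 76.8 FPKM and 12.1, 24.7 and 24.5 FPKM (1.73 ± 0.30), and c1qc at 76.3, 50.5 and 61.2 FPKM and 13.9, 24 and 26 FPKM (1.54 ± 0.26). C1q is made largely by macrophages, and its genes stand in the macrophage list too. cfp, which encodes properdin, the stabilizer of the alternative pathway, stood at 12.2, 18.3 and 12.9 FPKM and 3.74, 4.07 and 2.04 FPKM (1.87 ± 0.25). The sham libraries overlapped none of the cryoinjured ones in these 4 genes.

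Other immune lists had smaller medians than the macrophage, phagocyte, antigen presentation and complement lists. Of 18 tested neutrophil genes, 10 were higher and 8 lower, with a median of 0.27 and overlapping libraries. That median was 0.11 without cryoinjury 3 and 0.06 with median-of-ratios rescaling. At the unadjusted threshold 6 neutrophil genes passed higher and 1 lower (33.3% and 5.56%, against 18.2% and 2.35% of all genes). With median-of-ratios rescaling 6 passed higher and 2 lower. The 4 members with the lowest p were all higher, without overlap between groups, by 0.69 to 1.64. The lowest difference of the list was that of the neutrophil lysozyme gene lyz, whose values were scattered. It stood at 1.8, 5.45 and 11.13 FPKM in cryoinjured hearts and 23.9, 10.5 and 5.25 FPKM in sham hearts (-1.01 ± 0.65). Only 11 of 39 lymphocyte genes in the file were abundant enough to be tested, with a median of 0.56 that was 0.19 without cryoinjury 3. Of these, nkl.3, which encodes the cytotoxic granule protein NK-lysin, stood at 4.22, 4.84 and 6.31 FPKM and 1.81, 0.85 and 0.88 FPKM (1.5 ± 0.22), without overlap. Of 42 cytokines, chemokines and their receptors, 38 were higher and 16 passed, with a median of 0.68. With median-of-ratios rescaling 34 were higher, and 13 passed higher and 1 lower. The chemokine receptor gene cxcr3.2 stood at 7.51, 6.37 and 6.76 FPKM and 0.83, 2.2 and 1.31 FPKM (1.72 ± 0.22). il10ra, the receptor chain for the anti-inflammatory cytokine interleukin-10, stood at 2.08, 1.27 and 1.81 FPKM and 0.54, 0.63 and 0.49 FPKM (0.80 ± 0.18). Interferon response genes had a median of 0.49 (0.20 without sham 1), and 6 of 28 passed (2 with median-of-ratios rescaling). These 6 are 21.4% of the list, near the 18.2% of all genes that passed higher. The interferon-induced gene isg15 overlapped between groups, at 7.82, 21.9 and 39.1 FPKM and 0.7, 8.88 and 12.4 FPKM (1.72 ± 0.86).

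**Figure D5:**
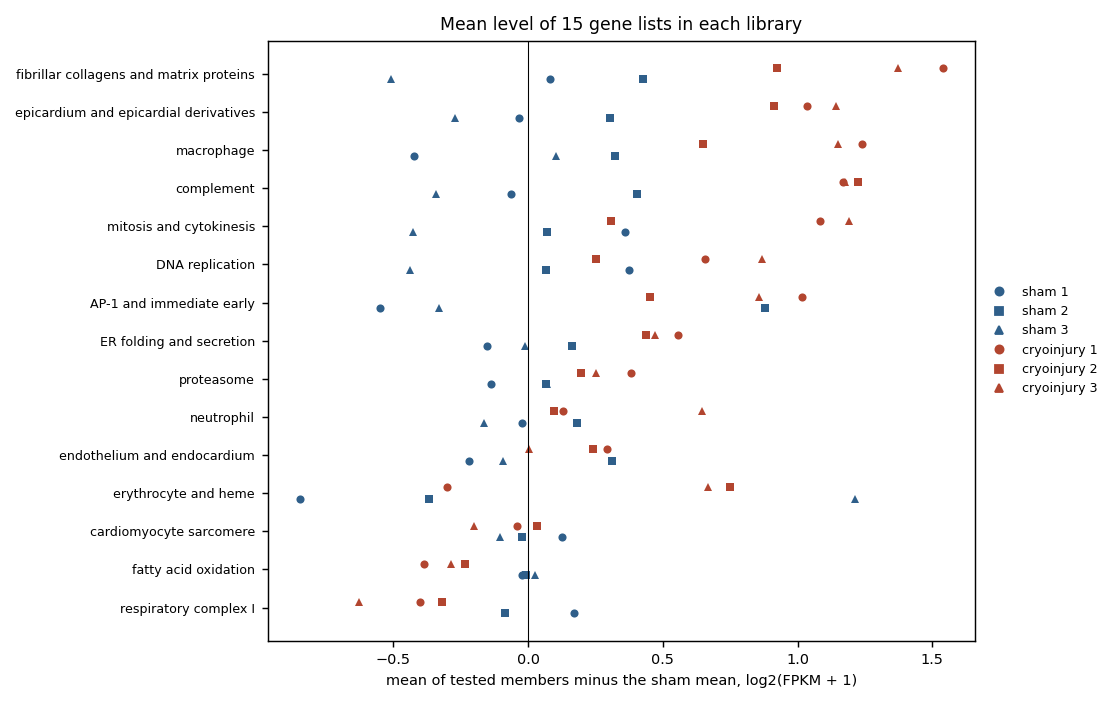
Mean level of the tested members of 15 gene lists in each of the 6 libraries, as the difference from the mean of the 3 sham libraries on the log2(FPKM + 1) scale. In FPKM as deposited, matrix, epicardial, macrophage, complement, secretion, proteasome, fatty acid oxidation and complex I lists separate the groups. Mitosis, DNA replication, immediate early, neutrophil, endothelial, erythrocyte and sarcomere lists overlap. The median difference of all tested genes, 0.19, is not drawn, and the lowest cryoinjured proteasome value (0.20) lies near it.

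Genes of cell division stood higher without separating the groups fully. All 58 tested genes of mitosis and cytokinesis were higher, 35 of them at the unadjusted threshold, with a median of 0.86. By library their mean lay 0.31 (cryoinjury 2) to 1.19 (cryoinjury 3) above the sham mean in cryoinjured hearts and -0.43 (sham 3) to 0.36 (sham 1) in sham hearts. mki67, the proliferation marker Ki-67, stood at 5.7, 3.05 and 6.57 FPKM in cryoinjured hearts and 2.15, 2.37 and 1.03 FPKM in sham hearts (1.08 ± 0.30). The mitotic kinase gene plk1 stood at 5.19, 2.13 and 5.44 FPKM and 1.25, 2.01 and 0.81 FPKM (1.12 ± 0.33). All 49 tested DNA replication genes were higher too, with a median of 0.52 (0.35 without sham 3), and 19 passed. mcm2, a subunit of the replicative helicase, stood at 7.24, 4.64 and 9.29 FPKM and 4.48, 2.8 and 1.54 FPKM (1.06 ± 0.33), with cryoinjury 2 barely above sham 1. pcna, the clamp of DNA polymerase, overlapped between groups, at 57.1, 30.1 and 67.7 FPKM and 45.9, 40.3 and 19.5 FPKM (0.55 ± 0.40). Median-of-ratios rescaling left 4 DNA replication and 20 mitosis genes at the unadjusted threshold.

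Genes that hold cells back from division were higher as well. Of 34 tested genes of cell cycle arrest, 30 were higher and 17 passed the unadjusted threshold, with a median of 0.56. With median-of-ratios rescaling 24 were higher, 10 were lower and 13 passed higher, with a median of 0.36. cdkn1a, the cyclin-dependent kinase inhibitor p21, stood at 19, 14.4 and 13 FPKM in cryoinjured hearts and 6.45, 5.41 and 5.26 FPKM in sham hearts (1.28 ± 0.17). ccng2, an atypical cyclin of resting cells, stood at 24.4, 19.5 and 21.2 FPKM and 8.77, 11.2 and 8.96 FPKM (1.1 ± 0.15). sesn1, a stress-induced sestrin gene, stood at 161, 139.6 and 109 FPKM and 72.1, 75 and 50.8 FPKM (1.04 ± 0.21). None of these 3 genes, which are among the lowest p of the list, overlapped between groups. Without overlap and higher were 17 of the 34 arrest genes, 22 of the 58 mitosis genes and 13 of the 49 DNA replication genes. Among all tested genes this share was 24.1%, and the DNA replication genes lay near it.

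Genes of the secretory pathway stood higher after cryoinjury. Of 70 tested genes of endoplasmic reticulum folding and secretion, 66 were higher, 41 passed the unadjusted threshold and 46 did not overlap, with a median of 0.45. Among all genes 18.2% passed higher and 24.1% were higher without overlap, and these 41 are 58.6% of the list. With median-of-ratios rescaling 19 passed higher and 1 lower, and the median was 0.22. As a share of summed FPKM the list overlapped between groups, at 0.432% to 0.512% in cryoinjured and 0.328% to 0.440% in sham libraries. pdia4, a protein disulfide isomerase, stood at 32.8, 35.5 and 34.6 FPKM in cryoinjured hearts and 9.48, 15.2 and 15.5 FPKM in sham hearts (1.32 ± 0.20). hsp90b1, the chaperone Grp94, stood at 111, 138 and 142 FPKM and 49, 70.9 and 55.9 FPKM (1.15 ± 0.18), and hspa5, the chaperone BiP, at 95.8, 105 and 94.9 FPKM and 40.0, 62.1 and 51.4 FPKM (0.96 ± 0.18). The cytosolic heat shock and oxidative stress list had a median of 0.20, near that of all genes and 0.11 without cryoinjury 3, with 6 passing higher and 2 lower (3 and 7 with median-of-ratios rescaling). The 6 higher are 13.3% of the list, against 18.2% of all genes. Among the higher ones, txn, which encodes the antioxidant protein thioredoxin, stood at 201, 87.7 and 168 FPKM and 23.9, 44.5 and 21 FPKM (2.31 ± 0.38), and hspa8, a constitutive Hsp70 chaperone, at 761, 916 and 909 FPKM and 592, 451 and 433 FPKM (0.82 ± 0.16). Of 34 genes of the amino acid stress response, 31 were higher and 15 passed (6 higher and 1 lower with median-of-ratios rescaling), with a median of 0.52. The amino acid transporter subunit gene slc3a2a stood at 18.2, 9.74 and 10.4 FPKM and 3.39, 5.95 and 5.06 FPKM (1.23 ± 0.28).

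Protein turnover genes mostly differed by small amounts with little scatter. Of 43 proteasome genes, 41 were higher, 16 passed higher and 1 lower, and 23 did not overlap, at a median of 0.31 and a lowest difference of -0.63. psmd1, a scaffold subunit of its regulatory particle, stood at 35.6, 30.6 and 35.8 FPKM and 18.2, 24.7 and 17.7 FPKM (0.73 ± 0.17). Among all genes 18.2% passed higher and 24.1% were higher without overlap, and the 16 proteasome genes that passed higher are 37.2% of their list. With median-of-ratios rescaling the proteasome median was 0.06, and 3 members passed higher and 1 lower. Ribosome biogenesis genes had a median near that of all genes, 0.18, with 10 of 51 passing higher (0 higher and 1 lower with median-of-ratios rescaling). These 10 are 19.6% of the list, near the 18.2% of all genes.

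Immediate early genes divided the sham libraries. Of 28 tested, 25 were higher and 7 passed the unadjusted threshold (4 with median-of-ratios rescaling), with a median of 0.66 (0.44 without sham 1 and 1.14 without sham 2). Sham 2 stood 0.88 above the sham mean over the list, within the cryoinjured range of 0.45 to 1.02. junba, an AP-1 subunit, stood at 46, 14.7 and 30.5 FPKM in cryoinjured hearts and 2.22, 24.1 and 4.01 FPKM in sham hearts (1.95 ± 0.77). egr1, an early growth response factor, stood at 7.86, 5.60 and 16.9 FPKM and at 0.52, 12.5 and 1.33 FPKM. The AP-1 subunit fosl2 did not overlap, at 9.27, 3.55 and 5 FPKM and 1.4, 2.76 and 0.65 FPKM (1.41 ± 0.39), nor did mych, a Myc family factor, at 16.1, 7.76 and 15.11 FPKM and 3.37, 5.08 and 3.47 FPKM (1.45 ± 0.29).

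Genes of mitochondrial respiration stood lower after cryoinjury, with few exceptions. All 39 tested nuclear genes of respiratory complex I were lower, 30 of them at the unadjusted threshold and 33 without overlap, with a median of -0.44 (-0.70 with median-of-ratios rescaling). Among all genes 2.35% passed lower and 3.46% were lower without overlap, and these 30 are 76.9% of the list. As a share of summed FPKM the complex I genes overlapped between groups, at 1.06% to 1.38% in cryoinjured and 1.36% to 2.06% in sham libraries. ndufa11, an accessory subunit, stood at 120.2, 117 and 86.1 FPKM in cryoinjured hearts and 184, 173 and 159.6 FPKM in sham hearts (-0.69 ± 0.16). ndufab1b, the mitochondrial acyl carrier protein, stood at 140.1, 151 and 135 FPKM and 232, 194 and 194 FPKM (-0.54 ± 0.13). ndufs1, a core iron-sulfur subunit, overlapped between groups, at 172, 202 and 151 FPKM and 246, 199 and 212 FPKM (-0.33 ± 0.16). Of 52 genes of complexes II to V, 45 were lower, and 32 passed lower and 2 higher, with a median of -0.41. cox7a1, the heart and muscle isoform of a cytochrome oxidase subunit, stood at 429.6, 419 and 298 FPKM and 747, 634 and 644 FPKM (-0.83 ± 0.18), and atp5l, of the ATP synthase membrane part, at 650.2, 607 and 537 FPKM and 1132, 983 and 884 FPKM (-0.74 ± 0.15). The groups did not overlap in either gene. Mitochondrial ribosome genes were lower in 61 of 75, by a smaller median of -0.14, with 4 passing. With median-of-ratios rescaling all 75 were lower, 33 passed and the median was -0.40.

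Fuel supply to the mitochondria showed the same sign. Of 35 tested genes of fatty acid oxidation, 31 were lower and 5 passed the unadjusted threshold, with a median of -0.27 (-0.42 without cryoinjury 2), and the mean level of the list was lower in each cryoinjured library than in each sham library. With median-of-ratios rescaling 20 passed and the median was -0.53. The share of summed FPKM of the list overlapped, at 0.392% to 0.509% in cryoinjured and 0.488% to 0.665% in sham libraries. acadm, the medium-chain acyl-CoA dehydrogenase, stood at 258, 331 and 227 FPKM in cryoinjured hearts and 461, 342 and 420.1 FPKM in sham hearts (-0.59 ± 0.19). fabp3, the fatty-acid binding protein of heart muscle, stood at 1022, 1082 and 903 FPKM and 1172, 1460.0 and 1302 FPKM (-0.39 ± 0.14). mpc1, a subunit of the carrier that brings pyruvate into mitochondria, stood at 223, 268 and 196 FPKM and 372, 304 and 358 FPKM (-0.59 ± 0.16). slc25a5, which exchanges ADP for ATP across the inner membrane, stood at 7169.5, 8738 and 6589 FPKM and 12862, 10764 and 10501 FPKM (-0.61 ± 0.16), and the oxygen store mb, encoding myoglobin, at 12328, 14613 and 12092 FPKM and 23292, 20754 and 15183 FPKM (-0.58 ± 0.19). In each of these 5 genes every cryoinjured library was below every sham library.

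Glycolysis genes were mixed in sign. Of 40 tested genes of glycolysis and glucose uptake, 30 were lower and 10 higher, 8 and 4 of them at the unadjusted threshold, and the median of -0.29 was -0.06 without sham 2. With median-of-ratios rescaling 19 passed lower and 3 higher. gapdh, an abundant glycolytic enzyme gene of muscle, stood at 9739, 9173 and 8702 FPKM in cryoinjured hearts and 12184, 14838 and 11504 FPKM in sham hearts (-0.47 ± 0.15). hk2, an inducible hexokinase, stood at 3.25, 2.73 and 4.83 FPKM and 0.58, 1.42 and 2.12 FPKM (0.98 ± 0.29), and pfkfb4b, which makes the activator of phosphofructokinase, at 5.66, 4.72 and 10.9 FPKM and 1.82, 4.05 and 2.58 FPKM (1.05 ± 0.33). The groups did not overlap in these 3 genes, with gapdh lower and the other two higher. ldha, a lactate dehydrogenase gene, overlapped, at 281, 268 and 257 FPKM and 425, 532 and 249.5 FPKM (-0.51 ± 0.27).

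Fewer contractile than respiratory genes separated the groups, with 9 of 48 sarcomere genes lower in every cryoinjured library against 33 of 39 for complex I. Among all tested genes 3.46% were lower in every cryoinjured library. Of 48 sarcomere genes, 31 were lower, 4 passed lower and 2 higher, with a median of -0.13 (-0.04 without sham 1 and -0.25 without sham 3). The 4 lower are 8.33% of the list, against 2.35% of all genes, and the 2 higher are 4.17%, against 18.2%. With median-of-ratios rescaling 19 passed lower. mybpc3, the cardiac myosin-binding protein, stood at 1095, 1218 and 955 FPKM in cryoinjured hearts and 1575, 1553 and 1251 FPKM in sham hearts (-0.42 ± 0.16). tnnt2a, cardiac troponin T, stood at 7434, 7224 and 8124 FPKM and 9279, 8719.8 and 9411 FPKM (-0.27 ± 0.12), without overlap and short of the unadjusted threshold. ankrd1a, a stretch-responsive nuclear and sarcomere protein that is also a Yap target, went the other way, at 6.13, 3.06 and 5.43 FPKM and 0.85, 0.94 and 0.18 FPKM (1.82 ± 0.29). Calcium handling, channel and gap junction genes had a median of -0.04, with 2 passing higher and 2 lower. This median ran from -0.11 without cryoinjury 2 to 0.02 without cryoinjury 3, and with median-of-ratios rescaling it was -0.24, with 1 passing higher and 7 lower. pln, encoding the calcium pump inhibitor phospholamban, stood at 976, 790.0 and 1085 FPKM and 1518, 1367 and 1087 FPKM (-0.48 ± 0.18), and bves, a membrane protein of pacemaking and muscle, at 354, 298 and 296 FPKM and 411, 479.8 and 438 FPKM (-0.49 ± 0.13). cx43, the gap junction protein connexin 43, stood higher, at 5.15, 5.53 and 5.31 FPKM and 2.1, 3.34 and 1 FPKM (1.08 ± 0.28).

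As a list, cardiac transcription factors were not far from the median of all genes (0.07 over 36 tested), with 2 passing higher and 2 lower. The median ran from -0.09 without sham 3 to 0.16 without sham 2, and with median-of-ratios rescaling 0 passed higher and 9 lower. hand2, a basic helix-loop-helix factor needed to form the heart, was lower with little scatter, at 115, 119 and 116 FPKM in cryoinjured hearts and 164, 162 and 166 FPKM in sham hearts (-0.49 ± 0.11). irx1a, another Iroquois gene, stood at 48.7, 47.5 and 37.2 FPKM and 72.8, 59.5 and 60.7 FPKM (-0.53 ± 0.16). Neither overlapped, whereas nkx2.5, the early cardiac homeobox gene, did, at 73.6, 102 and 60.8 FPKM and 96.8, 99.3 and 111 FPKM (-0.40 ± 0.20). gata4, which marks regenerating muscle near a wound, stood at 7.85, 8.27 and 9.08 FPKM and 8.83, 8 and 3.86 FPKM (0.31 ± 0.27), also with overlap. The 35 embryonic and border-zone muscle genes had a median of 0.00, below that of all genes, with zgc:195023 and ankrd1a as the 2 that passed higher and hand2 as the 1 that passed lower at the unadjusted threshold. With median-of-ratios rescaling 24 of the 35 were lower, with a median of -0.20, 2 passing higher and 10 lower.

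Among growth factors of heart repair, mdka was the 1 called gene. The 39 tested had a median of 0.32, with 9 higher and 1 lower at the unadjusted threshold (7 and 3 with median-of-ratios rescaling). The 9 higher are 23.1% of the list, against 18.2% of all genes. igf2b, an insulin-like growth factor, stood at 26.8, 18.6 and 22.4 FPKM in cryoinjured hearts and 9.66, 10.7 and 6.19 FPKM in sham hearts (1.27 ± 0.23). manf, a secreted endoplasmic reticulum stress factor, stood at 23.8, 20.2 and 20.4 FPKM and 10.5, 14.7 and 12.7 FPKM (0.73 ± 0.16). fgf7, a fibroblast growth factor for epithelia, was the lower one, at 3.73, 5.59 and 4.85 FPKM and 7.65, 8.87 and 9.58 FPKM (-0.77 ± 0.17). None of these 3 overlapped.

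Signalling pathways were represented by some of their genes more than by others. Of 28 genes of Tgf-beta and activin signalling, 25 were higher and 13 passed (7 higher and 2 lower with median-of-ratios rescaling), with a median of 0.44. The ligand gene tgfb1b stood at 8.45, 8.76 and 10.9 FPKM in cryoinjured hearts and 4.5, 6.44 and 5.51 FPKM in sham hearts (0.68 ± 0.17). Of 33 Wnt pathway genes, 10 passed higher and 1 lower, at a median of 0.19 (0.05 without sham 3). With median-of-ratios rescaling 6 passed higher and 2 lower, at a median of -0.06. Secreted modulators were among the higher ones: notum1b, which inactivates Wnt ligands, stood at 11.2, 5.4 and 11.3 FPKM and 0.66, 1.77 and 1.02 FPKM (2.23 ± 0.31), and rspo3, which enhances their signal, at 15.3, 13.3 and 14.7 FPKM and 1.98, 4.9 and 1.73 FPKM (2.09 ± 0.29). dkk3b, of the Dickkopf family, stood at 31.8, 40.2 and 47.6 FPKM and 15.2, 13.7 and 17.6 FPKM (1.3 ± 0.18), and axin2, a common Wnt target, at 5.14, 4.23 and 3.61 FPKM and 2.74, 2.99 and 2.34 FPKM (0.52 ± 0.16). The receptor gene fzd9b, given above, was the 1 that passed lower. Bmp and Notch lists had medians of 0.21 and 0.25, with 4 of 24 and 5 of 25 passing higher, near the 18.2% of all genes. The Notch median ran from 0.08 without sham 3 to 0.38 without sham 2, and that of Bmp reached 0.33 without cryoinjury 3. With median-of-ratios rescaling 0 Bmp genes passed, and 2 Notch genes passed higher and 2 lower.

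The genes counted as Yap and Taz targets had a median of 0.29 (0.13 without sham 3 and 0.55 without cryoinjury 2), with 19 of 25 higher and 9 past the unadjusted threshold. With median-of-ratios rescaling 8 passed higher and 1 lower. tagln and ankrd1a, described with the muscle genes, are members without overlap. nuak2, a stress-response kinase gene, stood at 2.3, 1.91 and 2.27 FPKM in cryoinjured hearts and 1.06, 0.93 and 0.78 FPKM in sham hearts (0.72 ± 0.16), also without overlap. Their best-known member ctgfa, a matricellular connective tissue growth factor, overlapped between groups, at 70.4, 28.5 and 61.6 FPKM in cryoinjured hearts and 26.8, 45.5 and 18.6 FPKM in sham hearts (0.79 ± 0.42).

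Endothelial and red blood cell genes overlapped between groups as lists, and thrombocyte and coagulation genes did not. Of 45 endothelial and endocardial genes, 5 passed higher and 0 lower. The 5 higher are a smaller share than the 18.2% of all genes that passed higher. The median of the list was 0.16, and it was 0.05 without sham 3. With median-of-ratios rescaling the median was -0.06, with 1 passing higher and 5 lower. efnb2a, an arterial ephrin, stood at 4.36, 5.56 and 6.28 FPKM and 1.32, 2.68 and 1.28 FPKM (1.24 ± 0.23), without overlap. kdrl, the endothelial receptor for Vegf, overlapped, at 29.7, 30.0 and 22.2 FPKM and 30.3, 41.6 and 29.9 FPKM (-0.30 ± 0.19), as did the junction gene cdh5, at 22.3, 19.6 and 13.8 FPKM and 11.7, 25.5 and 11.3 FPKM (0.26 ± 0.33). Of 31 erythrocyte and heme genes, none passed in either direction at the unadjusted threshold, and their median ran from 0.05 without sham 1 to 1.09 without sham 3. The erythroid heme enzyme gene alas2 stood at 197, 413 and 779 FPKM and 76.3, 277 and 495 FPKM (0.86 ± 0.75). Thrombocyte and coagulation genes had a median of 0.52, with 10 of 23 passing. Over that list the cryoinjured libraries stood 0.46 to 0.77 above the sham mean and the sham libraries -0.12 to 0.19. anxa5b, a phospholipid-binding annexin, stood at 41.9, 30.7 and 34 FPKM and 17.4, 17.4 and 13 FPKM (1.11 ± 0.18), whereas itga2b, the integrin that defines thrombocytes, overlapped, at 4.9, 2.29 and 3.3 FPKM and 2.09, 4.36 and 2.81 FPKM (0.13 ± 0.28), with a sign that turned with the setting.

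Lipid genes were mixed. Of 29 lipoprotein and lipid handling genes, 14 were higher and 15 lower, 8 and 1 of them at the unadjusted threshold (6 and 3 with median-of-ratios rescaling). abca1a, which exports cholesterol from cells, stood at 8.72, 5.66 and 7.22 FPKM in cryoinjured hearts and 3.38, 3.41 and 4.09 FPKM in sham hearts (0.81 ± 0.18). apoeb, an apolipoprotein E gene, stood at 15.9, 3.97 and 4.59 FPKM and 1.05, 2.74 and 1.5 FPKM (1.54 ± 0.48), with cryoinjury 1 well above the other libraries. Cholesterol synthesis genes had a median of 0.22, and 5 of 23 passed (0 with median-of-ratios rescaling). These 5 are 21.7% of the list, near the 18.2% of all genes that passed higher.

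Markers of neighbouring tissues that may come along with a dissected heart were read in each library. The tested fast muscle genes summed to 0.551% to 0.881% of FPKM in cryoinjured and 0.675% to 1.12% in sham libraries. In FPKM these sums were 4002 to 5928 and 5552 to 7588. pvalb2, a parvalbumin of fast muscle, stood at 11.2, 4.54 and 3.36 FPKM and 0.56, 0.4 and 0.27 FPKM (2.24 ± 0.37), without overlap. The sums therefore rest on far more abundant members, and whether those come from fast muscle was not tested. Another 21 fast muscle genes in the file had a mean under 1 FPKM. Of 39 fast muscle genes in the file 18 were tested, 5 passing higher and 1 lower, with a median of 0.25 (-0.15 without cryoinjury 1 and 0.76 without sham 1), and with median-of-ratios rescaling 5 passed higher and 5 lower. Of 41 liver and plasma protein genes 8 were tested, 4 higher and 4 lower, and their median was 0.62 (-0.24 without cryoinjury 2 and 1.47 without sham 3). Of these, cpn1, a plasma carboxypeptidase subunit, stood at 43.5, 34.7 and 31 FPKM and 10.2, 13.1 and 6.07 FPKM (1.84 ± 0.27), and tfa, encoding transferrin, at 111, 53.7 and 90.3 FPKM and 38.5, 21.5 and 10.1 FPKM (1.94 ± 0.48). The lower members fabp10a, apoa1b and apoa2 were high in sham 3 alone, and fabp10a, a hepatocyte gene, was at 0.46 FPKM or less in the cryoinjured libraries. The lower member rbp4, a retinol carrier, stood at 525, 529 and 449 FPKM and 421, 733 and 615 FPKM (-0.20 ± 0.22). Among 12 tested skin and gill genes the median was 0.48, with 2 passing higher and 1 lower (0 and 2 with median-of-ratios rescaling). That median was 0.25 without cryoinjury 3, which stood 1.27 above the sham mean over the list while the other cryoinjured libraries stood at -0.02 and -0.07. Of 26 gonad genes in the file 3 were tested, all of them lower, with a median of -0.07 (-0.65 without sham 1). The others had a mean under 1 FPKM. The 1 gonad gene that passed the unadjusted threshold was gsdf, a Tgf-beta family factor of fish gonads. It stood at 45.7, 35.6 and 18.9 FPKM after cryoinjury and 59.06, 97.3 and 64.9 FPKM after sham operation (-1.17 ± 0.34), without overlap.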

How the data were processed

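Polyadenylated RNA of whole hearts was sequenced on the BGISEQ-500 platform, per the labels' protocols. The aligners HISAT and Bowtie2 and the build GRCz11 are named, without an order, per the submitters' processing notes. The sources used here give neither versions, nor the program behind the expression values, nor whether strand was used. For 24782 genes the authors deposited FPKM, so raw counts and total depth are unknown, and relative depth was read from the steps between values of 0.3 to 1.5 FPKM (14 of 15 library pairs within 0.03, log2, of the joint solution). Of the value columns of the table, 1 matched no sample and was not used. It held the same value as the column of cryoinjury 3 for all 24782 genes, and no source used here says what it is. Older symbols were looked up in a RefSeq gene table (another assembly), from which no coordinates were taken. Reads of near-identical copies could have been divided in ways not given.

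Groups came from the labels. The fit used log2(FPKM + 1), a scale that shrinks differences of low genes, in the 6 wild-type libraries with limma 3.58.1 in R 4.3.3 (a mean per group, moderated with an intensity trend), for genes with a mean of 1 FPKM or more, with Benjamini-Hochberg adjustment at 0.05. The comparison, the 55 gene lists and the rule for naming genes were chosen with earlier results of these data known. Lists were described and not tested. The rule names yap1 and wwtr1, all called genes where they are 15 or fewer, the 10 genes with the lowest p in each direction with a proper symbol and 5 FPKM or more in the higher group, and of each list its key genes and the 4 members with the lowest p. Of the 307 genes it names, 130 are given, chosen among list members after their values were seen, and some are not reported here. The genes given for single libraries (col10a1b, krt5, fabp10a, egr1 and those under the other observations) were chosen after their values were seen. The fit was tested on simulated data with independent noise for each gene and no differences in scaling between libraries. That test cannot speak to the dependence on scaling or on single libraries. The alternatives were all 12 libraries in the fit, no filter, a filter at 5 FPKM, a pseudocount of 0.1, median-of-ratios, TPM, globin-free and quantile rescaling, array weights, no trend, a replicate block and leaving out each library. The adjusted threshold of 0.10 was chosen after seeing the data.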

Additional observations from a re-analysis of the deposited data

How the results depend on the processing

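The number of genes passing at an adjusted p under 0.05 was 8, and it moved to 0 with all 12 libraries, without a filter, with quantile normalization or with the replicate block, to 1 with median-of-ratios rescaling, to 4 with a filter at 5 FPKM, to 40 with array weights and to 215 with FPKM rescaled without globins. It was 448 at an adjusted p under 0.10, and 0 to 133 without single libraries. The 8 called genes stood higher in every setting in which they were tested. For the fits without single libraries, with another pseudocount or with array weights this follows from their lack of overlap. The fits with all 12 libraries, another filter, no trend or a replicate block leave the difference itself unchanged. Agreement in all these settings therefore gives no further support, and only the rescalings could have turned a sign. The number at an unadjusted p under 0.05 was 2858, 1228 with all 12 libraries, 1625 with the filter at 5 FPKM and 1760 to 3140 without single libraries. With the replicate block it was 2420. The block was not used because same-numbered libraries did not deviate together (correlations of -0.08, -0.20 and 0.16), and not every library correlated best with its own number. Of the 133 genes named and fitted, many of them chosen for a low p, 127 kept their direction in every setting tested. Several of these settings leave the difference unchanged by design, so this count gives little further support. The difference of yap1 turned to -0.15 with median-of-ratios and -0.050 with quantile rescaling, and ran from -0.092 (without sham 3) to 0.23 without single libraries. For itga2b it was -0.062 and -0.12 with these 2 scalings and -0.082 to 0.35 without single libraries, and for b2m -0.21 with median-of-ratios and -0.15 (without cryoinjury 3) to 0.25. For gata4 it was -0.003 (without sham 3) to 0.51. For nppa it turned to 0.033 with TPM, 0.072 without globins and 0.012 with quantile rescaling, and was -0.078 to 0.14 without single libraries. For myh11a it turned to 0.0058 with a pseudocount of 0.1, 0.025 with TPM and 0.067 without globins, and was -0.28 to 0.21 without single libraries. The causes were not tested. FPKM carry no read counts, so the precision of low genes is not known.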

Other observations

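Genes of the immune proteasome and of class I antigen presentation were listed at 0 in sham 2 alone. Besides psmb8a, given with antigen presentation, psmb10 stood at 13.4, 10.6 and 10.5 FPKM in cryoinjured hearts and at 10.7, 0 and 3.28 FPKM in sham hearts, psmb12 at 10.7, 11.9 and 9.06 FPKM and at 9.03, 0 and 3.99 FPKM, and psmb9a at 10.8, 7.43 and 8.33 FPKM and at 5.35, 0 and 2.95 FPKM. The class I gene mhc1uka stood at 14.7, 14.5 and 9.85 FPKM and at 18.7, 0 and 8.10 FPKM. These were all 5 of the genes at 0 in sham 2 with 2 FPKM or more in each of the other 5 libraries. The other libraries had 0 to 2 such genes each. The related class I gene mhc1zba was measured in all 6 libraries, at 151 to 217 FPKM.

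Cryoinjury 3 held genes of skeleton and skin that the other 5 libraries nearly lacked. scpp7, a secreted calcium-binding phosphoprotein gene of mineralized tissue, stood at 90.4 FPKM and at 0.14 FPKM or less elsewhere, col10a1a at 28.1 FPKM and 0.11 FPKM or less, and the keratin gene krt97 at 13.3 FPKM and 0.06 FPKM or less. In sham 3, the apolipoprotein genes apoa1b and apoa2 stood at 12.1 and 9.36 FPKM, with 1.62 and 0.30 FPKM or less elsewhere, and the embryonic globin gene hbbe2 at 20.3 FPKM, with 2.98 FPKM or less elsewhere. The pancreatic chymotrypsin gene ctrb1 was scattered across both groups, at 61.9, 32.0 and 1.55 FPKM in cryoinjured hearts and at 1.17, 53.9 and 247 FPKM in sham hearts. The immediate early gene nr4a1 stood at 26.8 FPKM in sham 2, with 1.64 and 4.98 FPKM in the other sham libraries and 18.4 to 26.8 FPKM in cryoinjured ones.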
